A study of Homo sapiens with 8 samples.

Results

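The genes examined here encode the proteins of the cytosolic ribosome. They were chosen by symbol alone, as RPL or RPS with a number, RPLP0, RPLP1, RPLP2 and RPSA, which gave 84 of the 46427 symbols in the count table. Of these, 77 encode standard ribosomal proteins, 31 of the small subunit and 46 of the large subunit. The other 7 are close copies with a suffix in their names, RPL3L, RPL7L1, RPL10L, RPL22L1, RPL26L1, RPL39L and RPS27L. A filter on low counts kept 82 members, all 77 standard genes and 5 of the 7 copies. RPL3L had at most 2 counts in any library and RPL10L at most 4, and both were left untested.

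Messenger RNA was sequenced from cells labelled as alveolar type 2 cells and made from H7, a human embryonic stem cell line of wild-type genotype. The groups were untreated cells and 3 bleomycin doses, 24, 240 and 480 µg/ml, each applied for 24 h, with 2 libraries per group. The labels give a stock solution weaker than these doses, and the doses are printed as labelled. Bleomycin is a drug that breaks DNA strands and is used to model lung fibrosis. It was applied to the apical face of cultures that had passed through a lung progenitor stage of 21 days, then 3 submerged days and 7 days at an air-liquid interface. All groups come from 1 cell line, and separate cultures for the 2 libraries of a group are not stated, so each p-value measures only the spread between libraries, which may be technical. Total counts ran from 53431773 to 67715984 per library.

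Several defining markers of the labelled cell type were at or near 0. SFTPC, the surfactant gene that marks alveolar type 2 cells, had at most 7 counts in any library, SFTPA1 at most 2 and SFTPA2 at most 7, and 9 of the 12 type 2 markers passed the filter. SFTPB, another surfactant gene, had 297 to 2137 counts and NKX2-1, a lung transcription factor, 15 to 87 counts over the 8 libraries. The summed level of all 12 type 2 markers was 166 to 173 CPM in untreated cells, 165 to 192 at 24 µg/ml, 119 to 120 at 240 µg/ml and 104 to 107 CPM at 480 µg/ml. CPM in these marker sums is scaled by the total counts of the library, and elsewhere by the TMM-corrected library size. All 13 hepatic markers were detected, with a sum of 54000 to 57060 CPM in untreated cells, 41660 to 58110 at 24 µg/ml, 78510 to 83850 at 240 µg/ml and 65540 to 74350 CPM at 480 µg/ml. Of 11 intestinal markers 10 passed, all but CDX1, with a sum of 2723 to 3807 CPM over the 8 libraries. All 10 mesenchymal markers passed, with a sum of 426 to 547 CPM over the 8 libraries. The sums hide changes of single genes. At 480 µg/ml 5 mesenchymal markers were called lower and 1 higher (edgeR adjusted p under 0.05). The same calls were 4 and 2 of 10 intestinal, 4 and 1 of 9 type 2, and 0 and 4 of 13 hepatic markers. Over all tested genes 13.9% were called in each direction. AFP alone took 4.23% and 4.5% of counts in the untreated libraries. The part of these shifts in the results below was not tested, and in bulk RNA fewer cells of a type and less RNA per cell cannot be told apart.

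Ribosomal proteins form the small and large subunits around ribosomal RNA, and cells make them in matched amounts. Their messenger RNAs are among the most abundant of a growing cell and typically begin with a C followed by an unbroken run of pyrimidines, the 5′ TOP element, through which mTOR signalling and the protein LARP1 govern their translation. After DNA damage or failed ribosome assembly, free RPL5 and RPL11 bind the ubiquitin ligase MDM2.

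RefSeq start regions were available for 67 of the 84 members (GRCh38.p14, 300 bases around each annotated start). Among the 62 standard genes with such a region, 42 (67.7%) had C as the first transcribed base followed by at least 4 pyrimidines. The same start was found at 627 of 13068 other tested genes (4.80%) and at 1104 of all 27305 start regions in the table (4.04%). The pairs of a copy and its partner that the results turn on are set out here, 15 bases before the annotated start and 15 from it, with the pyrimidine run from a C start in capitals and no capitals where there is none.

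RPS27, chr1:153990747-153990776, plus strand: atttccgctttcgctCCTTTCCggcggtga
RPS27L, chr15:63157463-63157492, minus strand: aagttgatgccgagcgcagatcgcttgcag
RPL26, chr17:8383179-8383208, minus strand: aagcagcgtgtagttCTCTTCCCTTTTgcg
RPL26L1, chr5:172958714-172958743, plus strand: agtcttccaggggtcggcgaacgaaacgcg
RPL22, chr1:6199581-6199610, minus strand: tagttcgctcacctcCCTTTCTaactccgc
RPL22L1, chr3:170870181-170870210, minus strand: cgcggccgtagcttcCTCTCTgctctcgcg
RPS19, chr19:41860240-41860269, plus strand: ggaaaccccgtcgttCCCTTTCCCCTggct
RPLP0, chr12:120201097-120201126, minus strand: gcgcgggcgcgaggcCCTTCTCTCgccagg

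RPS27L and RPL26L1 had no such run at the start shown, whereas RPL22L1 had one like its partner RPL22. For RPL26L1 this is the first of 2 listed starts, and the other was not examined. RPS19 and RPLP0 are shown as a standard gene at the upper edge of the set and as the most abundant one. Within the 300 bases, on either strand, CCGGAAG (the core bound by ETS factors) occurred in 33.9% of the standard genes, 16.6% of the other tested genes and 10.7% of all regions. AAGATGGC, a core bound by YY1, occurred in 9.68%, 4.59% and 3.03% of the same sets, and TATAAA in 8.06%, 6.70% and 11.9%. CACGTG, bound by MYC, occurred in 4.84% of standard genes, 9.49% of other tested genes and 7.43% of all regions.

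The set was abundant at every dose. On the TPM scale, which divides by gene length, the level in untreated cells ran among standard genes from 246 TPM for RPL14 to 6400 TPM for RPLP0, the stalk base of the large subunit, with a median of 2275 TPM. The next highest levels were those of RPS18 at 5812 TPM, RPS3A at 5337 TPM and RPL41 at 5252 TPM. The median level was 2240 TPM at 24 µg/ml, 2229 TPM at 240 µg/ml and 2017 TPM at 480 µg/ml. On this scale the copies stood far lower in untreated cells, RPL7L1 at 80.7 TPM, RPL22L1 at 43.3 TPM, RPL26L1 at 29.4 TPM, RPS27L at 24.0 TPM and RPL39L at 8.39 TPM. TPM depends on the gene length used, estimated here at 6536 bases for RPS27L, 383 for RPS27 and 7587 for RPL14. By counts RPS27L was 9.44% and 10.1% of RPS27 in the untreated libraries.

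As a share of all gene counts the 84 members took 7.80% and 6.94% in the untreated libraries, 7.37% and 7.74% at 24 µg/ml, 6.98% and 8.03% at 240 µg/ml and, at 480 µg/ml, 5.88% and 7.50%. The group means were 7.37 ± 0.611% in untreated cells, 7.55 ± 0.262% at 24 µg/ml, 7.51 ± 0.740% at 240 µg/ml and 6.69 ± 1.14% at 480 µg/ml (SD, n = 2 each). One library, replicate 1 of 480 µg/ml, lay below all others, while its partner lay inside the range of the untreated pair.

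**Figure D1:**
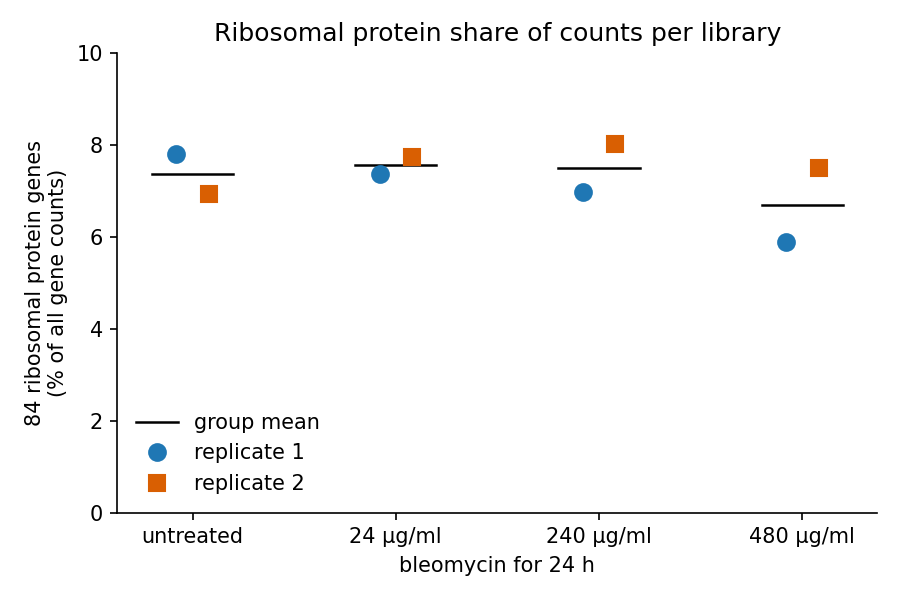
Share of all gene counts taken by the 84 ribosomal protein genes (%, y axis) at each bleomycin dose (x axis); each point is a library and each bar across is a group mean. The 480 µg/ml pair is the widest, with replicate 1 at 5.88% and replicate 2 at 7.50%.

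Gene by gene, the standard members lay close to one another within each library, and in some libraries they shifted together. The log2 CPM of each gene minus its mean in the untreated libraries had a median over the 77 genes of 0.11 and −0.11 in the untreated libraries, 0.02 and 0.03 at 24 µg/ml, −0.04 and 0.16 at 240 µg/ml and, at 480 µg/ml, −0.39 and 0.07. The 2 untreated values mirror each other because the mean is their own. In replicate 1 of 480 µg/ml all 77 genes lay below their untreated mean, in replicate 2 only 23 did. At 240 µg/ml 52 and 2 genes lay below it and at 24 µg/ml 31 and 21, so not every library had a common direction. Around these medians the genes were tightly packed, with an SD between genes of 0.13 and 0.19 in the 480 µg/ml pair, 0.09 and 0.11 in the 240 µg/ml pair, and 0.09 and 0.06 in the 24 µg/ml pair. The 1269 other genes of at least 7 log2 CPM were spread more widely, with an SD of 0.46 and 0.57 in the 480 µg/ml pair and 0.35 and 0.38 in the 240 µg/ml pair. Both subunits followed the same course, with medians of −0.37 and 0.14 for the small subunit and −0.40 and 0.06 for the large subunit in the 480 µg/ml pair.

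**Figure D2:**
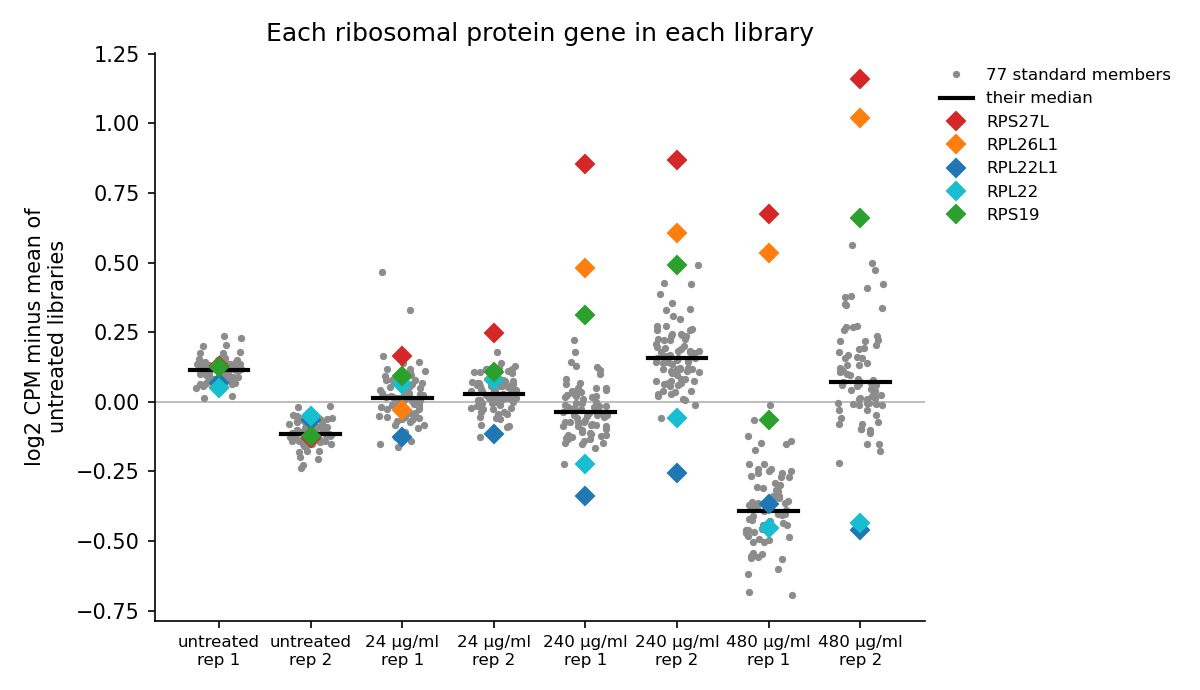
Log2 CPM minus the mean of the untreated libraries (y axis) for the 77 standard ribosomal protein genes (grey, RPL22 and RPS19 in colour, black bar for the median) and 3 copies in each of the 8 libraries (x axis, 2 replicates per dose). Standard genes form a narrow band around medians of −0.39 and 0.07 in the 480 µg/ml libraries, while the copies RPS27L and RPL26L1 stand above it at 240 and 480 µg/ml.

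The difference between libraries of one dose was therefore set beside the difference between doses. Replicate 2 minus replicate 1 had a median over the standard genes of −0.23 log2 in untreated cells, 0.02 at 24 µg/ml, 0.18 at 240 µg/ml and 0.48 at 480 µg/ml, while the median of the 18221 non-member genes lay between −0.004 and 0.043. All 77 genes differed in the same direction within the untreated pair (below 0), the 240 µg/ml pair (above 0) and the 480 µg/ml pair (above 0). In the 480 µg/ml pair this difference ran from 0.02 for RPL22 to 1.04 for RPS28, a small-subunit protein. RPS28 had 100 and 206 CPM at 480 µg/ml and 191 and 137 CPM in untreated cells. Its groups overlapped, and the gene was not called (log2 fold change −0.10 ± 0.30 SE, edgeR quasi-likelihood adjusted p = 0.84).

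**Figure D3:**
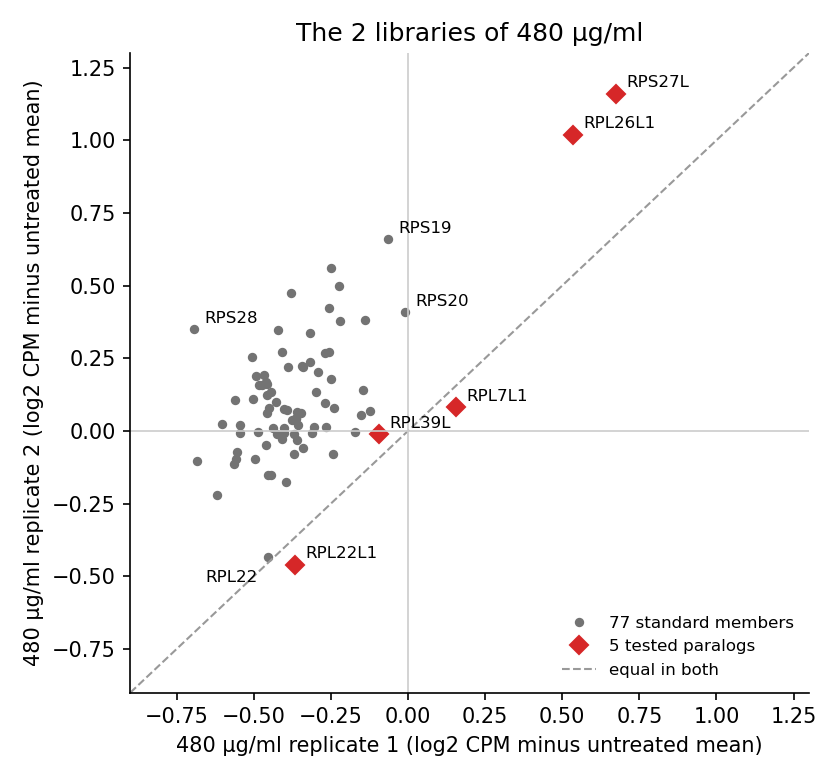
Each tested ribosomal protein gene in replicate 1 (x axis) against replicate 2 (y axis) of 480 µg/ml, both as log2 CPM minus the untreated mean. All 77 standard genes are negative on the x axis and all lie higher in replicate 2, from 0.02 for RPL22 to 1.04 for RPS28.

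Other measures moved with this pair. Ribosomal RNA took 1.21% and 3.30% of counts in replicates 1 and 2 of 480 µg/ml, mitochondrial genes 1.69% and 3.01%, and 23612 and 24497 genes had a count. Gene length moved with it as well. Among non-member genes the median difference, replicate 2 minus replicate 1, was 0.43 for 1282 genes under 1000 bases and −0.23 for 7242 genes over 4000 bases. Standard ribosomal protein genes had medians of 0.53 (42 genes under 1000 bases), 0.43 (18 genes of 1000 to 2000 bases), 0.45 (15 genes of 2000 to 4000 bases) and 0.35 (2 genes over 4000 bases). In each class of estimated length the ribosomal protein median was the higher. The lengths are estimates per gene, such as 7587 bases for RPL14 and 4851 for RPL27A. Their match to the transcripts expressed was not tested. The part of length, ribosomal RNA and mitochondrial RNA in the difference was not tested.

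**Figure D4:**
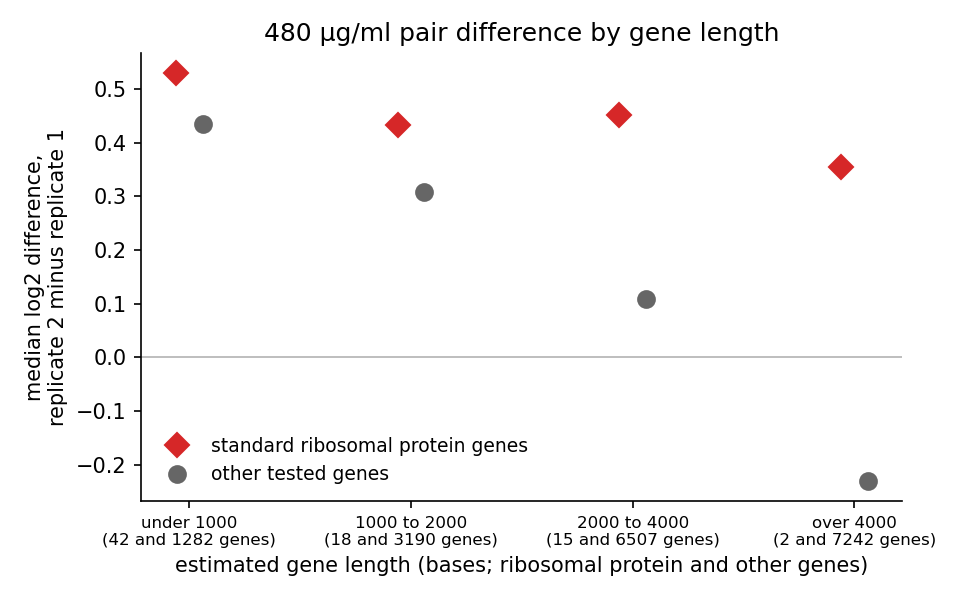
Median log2 difference between replicates 2 and 1 of 480 µg/ml (y axis) by estimated gene length in bases (x axis), for standard ribosomal protein genes and for all other tested genes. The other genes fall from 0.43 in the shortest class to −0.23 in the longest, and the ribosomal protein genes stay between 0.53 and 0.35.

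At 24 µg/ml none of the 82 tested members changed against untreated cells by edgeR's quasi-likelihood test (adjusted p under 0.05), and none by DESeq2, which called 0.178% of genes higher and 0.0222% lower. No member had an unadjusted edgeR p under 0.05, against 605 of all 18303 tested genes. After adjustment edgeR called 0% of these genes in either direction. The median log2 fold change of the 82 members was 0.02, against 0.01 over all tested genes. For 3 of the 77 standard genes both 24 µg/ml libraries lay above both untreated ones and for 2 both lay below, where this held for 18.2% of all tested genes upward and 18.4% downward. Relative to the median standard gene RPS27L stood at 0.15 and 0.22 log2 in these libraries. RPL13 and RPS2 departed in replicate 1. RPL13, of the large subunit, had 1311 and 960 CPM at 24 µg/ml, against 1073 and 841 CPM in untreated cells, and the groups overlapped. RPS2, of the small subunit, had 2409 and 1978 CPM at 24 µg/ml, against 2038 and 1806 CPM in untreated cells, again with overlap.

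At 240 µg/ml 1 member rose, RPS27L, and none fell, where 5.16% of all tested genes were called higher and 5.17% lower. The median member stood at 0.06 log2, against 0.01 over all tested genes, with 62 of 82 above 0. For 6 of the 77 standard genes both 240 µg/ml libraries lay above both untreated ones and for 1 both lay below, where this held for 33.9% of all tested genes upward and 32.1% downward.

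At 480 µg/ml RPS27L and RPL26L1 rose and RPL22 and RPL22L1 fell, where 13.9% of all tested genes were called higher and 13.9% lower. The median member stood at −0.14 log2, against 0.01 over all tested genes, with 66 of 82 below 0. Of the 77 standard genes 8 had both 480 µg/ml libraries below both untreated ones and none had both above, where 30.4% of all tested genes lay below and 31.8% above in this way. On TMM-scaled counts the shift of the standard genes rested on 1 library, with a median of −0.39 in replicate 1 and 0.07 in replicate 2. By share of TPM both 480 µg/ml libraries, at 14.83% and 16.97%, lay below both untreated ones, at 18.96% and 17.37%. Without replicate 2 of 480 µg/ml, 45 members were called lower (background 16.9%) and RPS27L and RPL26L1 higher (background 15.7%). Without replicate 1, 8 members were called higher (RPL28, RPLP1, RPS15, RPS19, RPS20, RPS21, RPS27L and RPL26L1, background 19.5%) and only RPL22 and RPL22L1 lower (background 21.7%). The library left alone in its group is assumed in these fits to vary like the others.

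Between doses, no member was called at 240 against 24 µg/ml, where 3.34% of all genes were higher and 3.49% lower. An unadjusted edgeR p under 0.05 was found for 2 of 82 members and for 4583 of 18303 tested genes. No member was called at 480 against 240 µg/ml, where 0.0273% of all genes were higher and 0.229% lower. Here 3 of 82 members and 2055 of 18303 tested genes had an unadjusted edgeR p under 0.05. The median member differed by 0.03 log2 at 240 against 24 µg/ml and by −0.18 log2 at 480 against 240 µg/ml. Against the untreated mean, the standard genes had medians of −0.04 and 0.16 log2 in the 240 µg/ml libraries. Replicate 1 of 480 µg/ml, at −0.39, lay below both, and replicate 2, at 0.07, lay between them. This comparison too turned on replicate 1 of 480 µg/ml. For 240 against 24 µg/ml, DESeq2 called 1 member higher, RPS27L (background 5.83%).

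RPS27L (gene 51065, chromosome 15, 63148249 to 63157477) encodes a close copy of the small-subunit protein RPS27. It had 69.6 and 58.2 CPM in untreated cells, 71.3 and 75.6 at 24 µg/ml, 115 and 116 at 240 µg/ml and, at 480 µg/ml, 101 and 142 CPM. Every library of 240 and 480 µg/ml lay above every library of untreated cells and of 24 µg/ml. The log2 fold change against untreated cells was 0.20 ± 0.17 at 24 µg/ml (SE, edgeR adjusted p = 1), 0.86 ± 0.17 at 240 µg/ml (adjusted p = 0.0183) and 0.93 ± 0.17 at 480 µg/ml (adjusted p = 0.00448). The call at 240 µg/ml was lost when either untreated library or either 240 µg/ml library was left out (adjusted p 0.0856 to 0.157), and that at 480 µg/ml without untreated replicate 2 (adjusted p = 0.0548). Over the 17 alternatives the adjusted p of RPS27L ran from 4.96e-05 to 0.157 at 240 µg/ml and from 2.14e-06 to 0.0548 at 480 µg/ml.

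Its partner RPS27, which carries a zinc finger, was not called at any dose. RPS27 had 737 and 574 CPM in untreated cells, 671 and 659 at 24 µg/ml, 665 and 799 at 240 µg/ml and, at 480 µg/ml, 544 and 784 CPM, with overlap between all groups and a log2 fold change of 0.02 ± 0.19 at 480 µg/ml (SE, edgeR adjusted p = 0.955). RPS27L counts were 9.44% and 10.1% of those of RPS27 in untreated cells, 10.6% and 11.5% at 24 µg/ml, 17.3% and 14.5% at 240 µg/ml and, at 480 µg/ml, 18.7% and 18.1%. In this ratio the 480 µg/ml replicates, which differed in each gene, lay close together.

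RPL26L1 (gene 51121, chromosome 5, 172954094 to 172969771) encodes a copy of the large-subunit protein RPL26. It had 9.83 and 9.12 CPM in untreated cells, 9.28 and 10.0 at 24 µg/ml, 13.2 and 14.4 at 240 µg/ml and, at 480 µg/ml, 13.7 and 19.2 CPM. The 240 and 480 µg/ml libraries again lay above all libraries of the lower groups. The log2 fold change was 0.03 ± 0.17 at 24 µg/ml (SE), 0.55 ± 0.17 at 240 µg/ml (edgeR adjusted p = 0.0783) and 0.80 ± 0.17 at 480 µg/ml (adjusted p = 0.00927). The call was lost without untreated replicate 1 (adjusted p = 0.0536) or replicate 2 (adjusted p = 0.0814), and the adjusted p over 17 alternatives ran from 0.000346 to 0.0814 at 480 µg/ml. RPL26L1 counts were 1.14% and 1.19% of those of RPL26 in untreated cells, 1.15% and 1.19% at 24 µg/ml, 1.66% and 1.62% at 240 µg/ml and, at 480 µg/ml, 2.24% and 2.36%. The partner RPL26 had a log2 fold change of −0.18 ± 0.15 at 480 µg/ml (SE, edgeR adjusted p = 0.396).

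**Figure D5:**
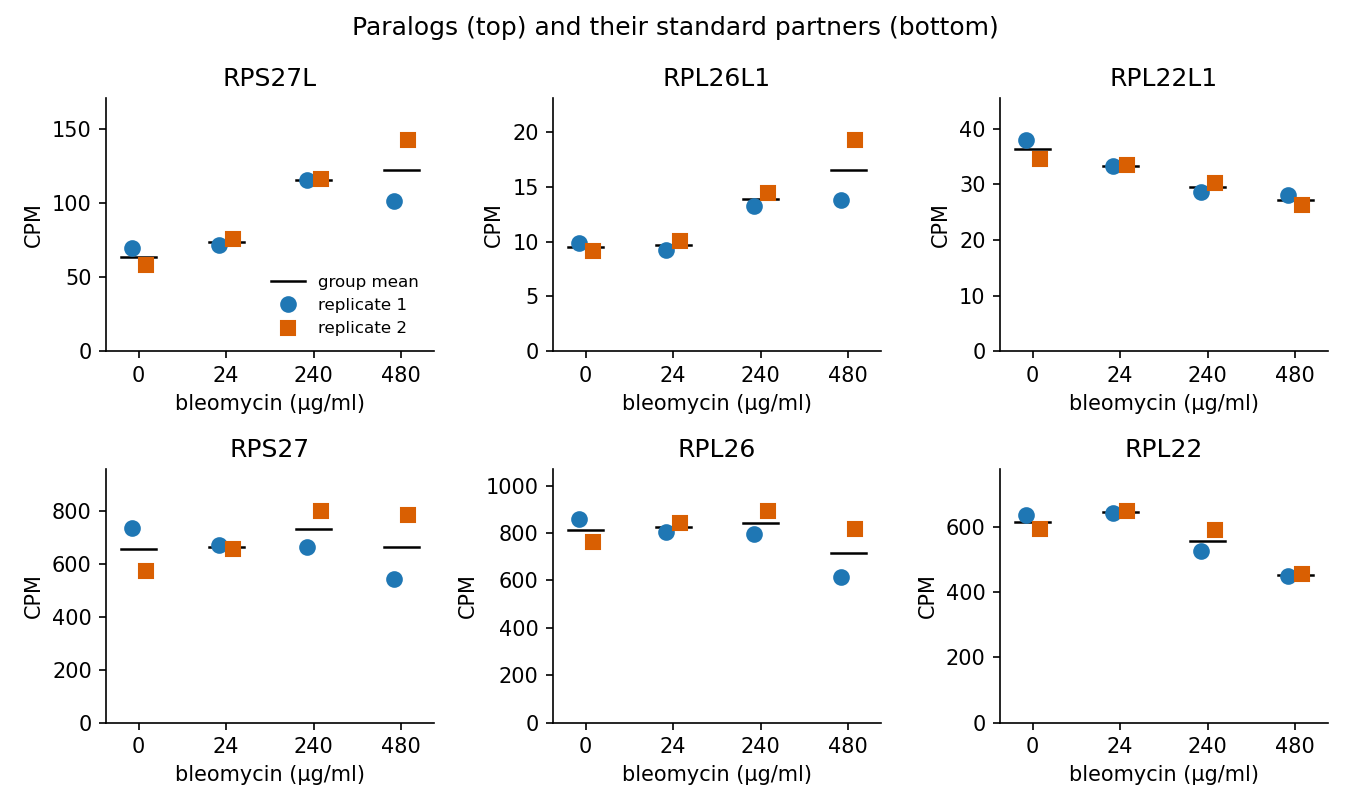
CPM (y axis) of RPS27L, RPL26L1 and RPL22L1 (top) and of their partners RPS27, RPL26 and RPL22 (bottom) by bleomycin dose (x axis, µg/ml); points are libraries and bars across are group means. RPS27L reaches 115 to 142 CPM in 3 of the 4 libraries of 240 and 480 µg/ml and 101 CPM in the other, while RPL22 falls to 448 and 454 CPM at 480 µg/ml.

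RPL22 (gene 6146, chromosome 1, 6185020 to 6199595) encodes a large-subunit protein that also binds RNA outside the ribosome, and in mice RPL22 protein lowers the level of its copy RPL22L1. RPL22 had 635 and 592 CPM in untreated cells, 641 and 647 at 24 µg/ml, 525 and 589 at 240 µg/ml and, at 480 µg/ml, 448 and 454 CPM. Of the standard genes it had the smallest difference within the 480 µg/ml pair, and both those libraries lay below all 6 others. Relative to the median standard gene, RPL22 stood at −0.19 and −0.21 log2 in the 240 µg/ml libraries. At 480 µg/ml it stood at −0.06 in replicate 1, close to the other standard genes, and at −0.505 in replicate 2. The log2 fold change at 480 µg/ml was −0.44 ± 0.11 (SE, edgeR adjusted p = 0.018). The call was lost without untreated replicate 1 (adjusted p = 0.136) or replicate 2 (adjusted p = 0.0752) and when the 2 groups were fitted alone (adjusted p = 0.0817), and over 17 alternatives the adjusted p ran from 0.00485 to 0.268.

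RPL22L1 (gene 200916, chromosome 3, 170864875 to 170870195) had 37.9 and 34.6 CPM in untreated cells, 33.2 and 33.4 at 24 µg/ml, 28.7 and 30.3 at 240 µg/ml and, at 480 µg/ml, 28.1 and 26.3 CPM. The libraries of each higher dose lay below those of the dose before it. Relative to the median standard gene, RPL22L1 stood at −0.30 and −0.41 log2 in the 240 µg/ml libraries. At 480 µg/ml it stood at 0.03 in replicate 1, level with the standard genes, and at −0.53 in replicate 2. The log2 fold change was −0.12 ± 0.12 at 24 µg/ml (SE), −0.30 ± 0.12 at 240 µg/ml (edgeR adjusted p = 0.14) and −0.41 ± 0.12 at 480 µg/ml (adjusted p = 0.0289). The call at 480 µg/ml was lost under 10 of 17 alternatives, whose adjusted p ran from 0.00602 to 0.438 in all, among them each untreated, 24 and 240 µg/ml library left out and the fit with no filter (adjusted p = 0.0608). RPL22L1 counts were 5.98% and 5.85% of those of RPL22 in untreated cells, 5.18% and 5.17% at 24 µg/ml, 5.45% and 5.15% at 240 µg/ml and, at 480 µg/ml, 6.28% and 5.80%. The ratio was thus lower at 24 and 240 µg/ml than in either untreated library, and at 480 µg/ml, where both genes were called lower, it overlapped with untreated cells.

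The remaining copies were not called. RPL7L1, a nucleolar relative of RPL7, had 170 and 161 CPM at 480 µg/ml and 157 and 148 CPM in untreated cells (log2 fold change 0.12 ± 0.11 SE, edgeR adjusted p = 0.443). RPL39L, known mainly from testis, had 1.96 to 3.53 CPM over the 8 libraries. In the GENCODE 29 transcripts, RPS27L, RPL26L1, RPL22L1 and RPL7L1 shared none of their 50-base windows with their partners, and the longest identical stretches were 20, 20, 17 and 11 bases. RPL39L shared 18 windows (1.70%) with RPL39 and RPL10L 1 window with RPL10, so their few counts are uncertain. The table also listed 1447 ribosomal protein pseudogenes, whose counts were 2.03 to 2.26 for every 100 counts of the members, and how reads were split among such copies is not given.

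Among standard genes RPS19, a small-subunit protein whose loss causes Diamond-Blackfan anaemia, had the largest departure of the group mean from the median member at 480 µg/ml. It had 871 and 734 CPM in untreated cells, 852 and 862 at 24 µg/ml, 993 and 1125 at 240 µg/ml and, at 480 µg/ml, 764 and 1263 CPM. Relative to the median standard gene of the same library it stood 0.08 and 0.08 log2 higher than in untreated cells at 24 µg/ml, 0.35 and 0.34 at 240 µg/ml and, at 480 µg/ml, 0.33 and 0.59 higher. It was not called, with a log2 fold change of 0.34 ± 0.21 at 480 µg/ml (SE, edgeR adjusted p = 0.264). That value was −0.07 without 480 µg/ml replicate 2 and 0.64 without replicate 1 (adjusted p = 0.0032).

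As an alternative, library sizes were set by the summed counts of all 84 members, copies included, a scale chosen after the data were seen. The median of all genes then moved by 0.16 log2 at 480 µg/ml. The share of calls that were higher was 68.4%, against 50.1% on the TMM scale. On this scale RPS27L (1.07 ± 0.15 SE, edgeR adjusted p = 0.00488), RPL26L1 and RPS19 (0.46 ± 0.13, adjusted p = 0.0487) were called higher at 480 µg/ml (background 12.6%). No member was called lower (background 5.85%), and RPL22 had an adjusted p of 0.268 and RPL22L1 of 0.438. The rise of RPS27L and RPL26L1 at 480 µg/ml was called on both scales, and the fall of RPL22 and RPL22L1 on the TMM scale and not on this one.

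At the lower edge stood RPSA, the laminin-binding protein of the small subunit. It had 853 and 1125 CPM at 480 µg/ml, against 1406 and 1222 CPM in untreated cells, without overlap. It missed the threshold in the main edgeR fit (log2 fold change −0.41 ± 0.15 SE, adjusted p = 0.0754), and DESeq2 called it lower (background 14.8%). So did edgeR with no filter (adjusted p = 0.0207) and limma on log2(TPM + 1) (adjusted p = 0.016), whose background shares are not given. Under 13 of 17 alternatives RPSA was not called. The log2 fold change of RPSA was −0.24 without 480 µg/ml replicate 1 (edgeR adjusted p = 0.157) and −0.62 without replicate 2 (adjusted p = 0.00527). Relative to the median standard gene RPSA stood at −0.11 and −0.12 log2 in the 240 µg/ml libraries and at −0.23 and −0.29 in those of 480 µg/ml.

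The 3 stalk proteins, which recruit translation factors to the large subunit, were not called at any dose. RPLP0 had 2351 and 3241 CPM at 480 µg/ml and 3302 and 2883 CPM in untreated cells (log2 fold change −0.14 ± 0.16 SE, edgeR adjusted p = 0.525). RPLP1 stood at 0.18 ± 0.21 (adjusted p = 0.57) and RPLP2 at −0.08 ± 0.23 (adjusted p = 0.821) at the same dose.

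Of the 7 members known to bind MDM2 (RPL5, RPL11, RPL23, RPL26, RPS7, RPS27 and RPS27L), RPS27L rose at 240 and 480 µg/ml and the others were not called. RPL5 had 1169 and 1440 CPM at 480 µg/ml and 1672 and 1533 CPM in untreated cells, with no overlap (log2 fold change −0.30 ± 0.13 SE, edgeR adjusted p = 0.129). RPL11 had 538 and 712 CPM at 480 µg/ml and 723 and 664 CPM in untreated cells, with overlap (−0.15 ± 0.15, adjusted p = 0.478). RPS6, the ribosomal target of S6 kinase, stood at −0.14 ± 0.14 (adjusted p = 0.478), RPS27A, made as a ubiquitin fusion, at −0.18 ± 0.15 (adjusted p = 0.381), RPL13A at −0.15 ± 0.17 (adjusted p = 0.533) and the X-linked RPS4X at 0.00 ± 0.13 (adjusted p = 0.997). RPL3, near the peptidyl transferase centre, stood at −0.29 ± 0.14 (adjusted p = 0.171). None of 3 ribosome-associated genes outside the naming rule (FAU, RPL36AL and RACK1) was called at any dose.

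Beside the ribosomal proteins themselves stand the factors that assemble them. Of 48 such biogenesis genes none was called at 24 µg/ml (median log2 fold change −0.04), 22 fell and none rose at 240 µg/ml (median −0.46), and 30 fell and none rose at 480 µg/ml (median −0.62), against a median of 0.01 over all tested genes at each dose. Over all tested genes 5.17% were called lower at 240 µg/ml and 13.9% at 480 µg/ml. DKC1, the pseudouridine synthase of ribosomal RNA, had 16.5 and 15.7 CPM at 480 µg/ml and 40.4 and 40.2 CPM in untreated cells (−1.32 ± 0.12 SE, edgeR adjusted p = 0.00024). NLE1, which acts in large-subunit assembly, stood at −1.59 ± 0.19 (adjusted p = 0.000759) and the nucleolar protein LYAR at −1.62 ± 0.16 (adjusted p = 0.000331).

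Of 20 translation factors and related genes whose messenger RNAs carry a 5′ TOP element or are reported with such genes, none was called at 24 µg/ml (median 0.03), 2 fell at 240 µg/ml (median −0.05) and 7 fell at 480 µg/ml (median −0.22), and none rose, where 5.17% and 13.9% of all tested genes were called lower at these doses. NPM1, a nucleolar chaperone, had 733 and 725 CPM at 480 µg/ml and 1276 and 1193 CPM in untreated cells (−0.76 ± 0.10 SE, edgeR adjusted p = 0.00126), and EIF4B, a helper of the initiation helicase, stood at −0.66 ± 0.12 (adjusted p = 0.00359).

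A list of 16 control genes held regulators of ribosomal protein synthesis and also MDM2, which ribosomal proteins bind and which is not such a regulator. Of the 16, 4 rose and 1 fell at 240 µg/ml (median 0.19), and none was called at 24 µg/ml (median 0.01). At 480 µg/ml 6 rose, MDM2 among them, and 1 fell (median 0.16). Over all tested genes 5.16% were higher and 5.17% lower at 240 µg/ml, and 13.9% were called in each direction at 480 µg/ml. MDM2 had 498 and 421 CPM at 480 µg/ml and 126 and 130 CPM in untreated cells (log2 fold change 1.84 ± 0.13 SE, edgeR adjusted p = 0.000107). MYC, a transcription factor for ribosome genes, had 10.7 and 14.5 CPM at 480 µg/ml and 67.1 and 56.3 CPM in untreated cells (−2.29 ± 0.29, adjusted p = 0.000924). MTOR, the kinase upstream of TOP translation, stood at 0.85 ± 0.11 (adjusted p = 0.00114). Of 11 genes for ubiquitin-linked ribosome quality control none rose, and none fell at 24 µg/ml (median 0.03), 1 at 240 µg/ml (median −0.20) and 2 at 480 µg/ml (median −0.22), near the share of all tested genes called lower (5.17% and 13.9% at these doses). ABCE1, the ribosome recycling factor, stood at −0.86 ± 0.19 at 480 µg/ml (adjusted p = 0.00932).

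The mitochondrial ribosome, encoded by separate nuclear genes, was called in both directions. Of 77 such genes none was called at 24 µg/ml (median −0.01), 1 rose and 1 fell at 240 µg/ml (median 0.05), and 8 rose and 4 fell at 480 µg/ml (median 0.12), where 13.9% of all tested genes were called in each direction at 480 µg/ml and 5.16% higher and 5.17% lower at 240 µg/ml. MRPL13 rose, with 47.9 and 50.2 CPM at 480 µg/ml and 26.6 and 25.3 CPM in untreated cells (0.92 ± 0.13 SE, edgeR adjusted p = 0.00126). Respiratory chain genes were listed for comparison. Of 83 tested of 90, none was called at 24 µg/ml (median −0.04), 2 rose and 1 fell at 240 µg/ml (median 0.23), and 20 rose and 1 fell at 480 µg/ml (median 0.33), where the median of all tested genes was 0.01 and 13.9% of them were called in each direction (5.16% higher and 5.17% lower at 240 µg/ml).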

How the data were processed

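The deposited tables hold whole-number counts, TPM and FPKM per gene symbol and library. Per the submitters' processing notes, the authors used Trimmomatic, HISAT2, Bowtie2, StringTie and GRCh38; versions, annotation, strand setting and treatment of multiply mapped reads are not given in the sources used here. The counts as deposited are not normalized. Levels between genes and 1 alternative rest on the authors' TPM, and gene lengths were estimated from the deposited FPKM and counts.

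Counts were tested in R 4.3.3 with edgeR 4.0.16 (TMM factors, filterByExpr with at least 10 counts and 15 in total, quasi-likelihood fit over all 8 libraries, Benjamini-Hochberg adjustment over 18303 genes, threshold 0.05). Each dose was set against untreated cells and against the next lower dose, 5 comparisons in all. CPM uses TMM-scaled library sizes, except in the marker sums, which use total counts. Log2 CPM uses a prior count of 2. A count of 0 allows up to 3 counts, or 0.0438 to 0.0576 CPM, covering counting error only. Alternatives were RLE factors, TMM factors without the members, no filter, at least 50 counts in 2 libraries, DESeq2 1.42.0, limma 3.58.1 on log2(TPM + 1), a replicate block, the 2 groups alone, each library left out, and a ribosomal protein scale. The procedure was tested on simulated data.

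Named genes were the copies, stalk and MDM2-binding members, RPS6, RPSA, RPS27A, RPL13A, RPS4X, the 3 most abundant, called members, the 3 largest departures per dose and up to 3 genes by p per other list. RPL14, RPS18, RPS3A, RPL41, RPS28, RPS2, and the members listed with single libraries left out were named after their values were seen. The members and lists were chosen with earlier results of these data known. RefSeq start regions are from GRCh38.p14, the first entry where a gene had several. Some genes of the lists are not reported here.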

Additional observations from a re-analysis of the deposited data

How the results depend on the processing

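The members called higher at 240 µg/ml against untreated cells numbered 1, but 4 when the 2 groups were fitted alone and 0 to 4 with a library left out, and those called lower numbered 0, but 1 when the 2 groups were fitted alone and 0 to 1 with a library left out. At 480 µg/ml those called higher numbered 2 (0 to 8 with a library left out) and those called lower 2, with 9 by limma on log2(TPM + 1), 0 on the ribosomal protein scale, 0 with the 2 groups alone, 1 with the replicate block and 0 to 45 with a library left out. At 240 against 24 µg/ml those called higher numbered 0, but 1 by DESeq2, with no filter, with at least 50 counts in 2 libraries or by limma, 4 with the 2 groups alone and 0 to 3 with a library left out. At 480 against 240 µg/ml those called lower numbered 0, and 0 to 31 with a library left out. The share of all tested genes called also differs between settings. At 480 µg/ml 13.9% were called lower in the main fit and 5.85% on the ribosomal protein scale. The share is not given for most other settings, so these counts are not read as results about the members. The cause of the changes was not tested.

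The members' share was 19.0%, 17.4%, 18.4%, 19.2%, 16.6%, 18.9%, 14.83% and 16.97% of TPM in the untreated, 24, 240 and 480 µg/ml libraries in turn, so on this measure both 480 µg/ml libraries lay below both untreated ones. Without mitochondrial, ribosomal RNA and AFP counts it was 8.43% and 7.49% in the untreated pair, 8.06% and 8.29% in the 24 µg/ml pair, 7.75% and 8.84% in the 240 µg/ml pair, and 6.42% and 8.41% in the 480 µg/ml pair, again the widest.

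Libraries with the same replicate number did not deviate together (correlations −0.084 to 0.043). With 2 libraries a group, these values cannot tell whether same-numbered libraries were handled together. The replicate block moved the count of lower calls at 480 µg/ml to 1. Of 2835 single-gene values under settings that kept all libraries, 2686 kept their side of the threshold and none of those past it reversed; with a library left out, 2243 of 2520 did so. With 2 libraries a group, fold changes of the standard genes near the SE of 0.11 to 0.30 could not be detected.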
